A study of Danio rerio with 12 samples.

Results

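Cobalamin (vitamin B12) has to be carried into the cell, stripped of its upper ligand and delivered to its enzymes, and 10 zebrafish genes of this route are described here. They are cd320, lmbrd1 and abcd4 (uptake and exit from the lysosome), mmachc and mmadhcb (processing and routing), mtr and mtrr (methionine synthase and its reductase), and mmab, mmaa and mmut (the mitochondrial branch). They were chosen by name, with earlier results of these data known. Their values were taken from the probe sets that the array's annotation assigns to them. Of the 10 genes, 9 were listed by 10 of the 75212 probe sets, and cd320 was not analysed here because the annotation used names no probe set for it. Of those 9 genes, 6 were among the 14002 genes tested (lmbrd1, mmadhcb, mtrr, mmut, mmaa and mmab).

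RNA was measured in whole zebrafish eyes with 4 groups of 3 pools: mmachc mutants at 7 days post fertilization (dpf), mmachc heterozygotes at 7 dpf, mmachc mutants at 28 dpf and mmachc heterozygotes at 28 dpf. The sample titles call the mutants homozygous. All 4 groups carry the mmachc mutation, no wild-type eyes are among the samples, and the nature of the mutation and the number of fish per pool are not given in the sources used here. Whether pools were drawn from different clutches is likewise not given, so a p-value here covers the spread from pool to pool and no more. The design asks which transcripts differ between the genotypes at each of the 2 ages.

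Cobalamin bound to transcobalamin enters the cell through the receptor Cd320 and leaves the lysosome with the help of Lmbrd1 and Abcd4, as known mainly from human and mouse cells. Mmachc then removes the upper ligand, and Mmadhc directs the vitamin either to methionine synthase in the cytosol, which remakes methionine from homocysteine, or into the mitochondrion, where methylmalonyl-CoA mutase uses it in the breakdown of propionate. Loss of human MMACHC causes cobalamin C disease, in which methylmalonic acid and homocysteine accumulate and retinal degeneration is common.

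Values are log2 intensities as the authors deposited them, normalized between arrays, and they give no counts, so no depth applies and the number of arrays limits the precision. Arrays of the same group correlated over the genes tested at 0.989 to 0.994, no pair of arrays was identical (0 pairs), and the median SE of a difference was 0.08 on the log2 scale. The tissue label was borne by its markers: 7 of 8 photoreceptor and 7 of 7 lens genes were on the array and tested, with summed levels of 14.55 to 14.73 and 14.71 to 15.04 in log2 over the 12 arrays. The 5 pigment epithelium markers moved with genotype at both ages, with summed levels of 13.10 to 13.24 in mutant eyes against 13.35 to 13.60 in heterozygous eyes at 7 dpf, and of 12.88 to 12.91 in mutant eyes against 13.06 to 13.20 in heterozygous eyes at 28 dpf. Of these 5, 3 fell at 7 dpf and 4 at 28 dpf, and 0 rose. Over all genes tested 4.05% rose and 8.4% fell at 7 dpf, and 21.8% rose and 39% fell at 28 dpf. After the centring described below 3 of the 5 markers fell at 7 dpf, and 2 fell and 1 rose at 28 dpf. Of all 14002 genes, 1021 fell and 764 rose at 7 dpf after centring, and 3284 fell and 5842 rose at 28 dpf. Skeletal muscle markers (6 of 6 on the array) summed to 9.54 to 10.52 in mutant eyes against 10.36 to 10.60 in heterozygous eyes at 28 dpf, and to 9.05 to 9.33 in mutant eyes against 8.50 to 9.04 in heterozygous eyes at 7 dpf. Of these 6, 0 passed at 7 dpf. At 28 dpf 1 fell and 0 rose, acta1b by 1.21 (limma's adjusted p = 3.17e-05), and after centring 1 fell and 1 rose. Blood markers differed by genotype at 28 dpf in both directions. Of 3 tested, hbae3 rose by 1.46 (limma's adjusted p = 4.31e-06), while slc4a1a fell by 0.63 (0.00103) and alas2 by 0.45 (0.0369). After centring 1 of them rose and 1 fell, and at 7 dpf 0 passed. Of 7 photoreceptor markers 2 fell at 7 dpf, and 2 fell and 2 rose at 28 dpf, from pde6a (-0.52) to opn1lw2 (0.22). After centring 1 fell and 1 rose at 7 dpf, and 1 fell and 4 rose at 28 dpf. Of 7 lens markers 0 passed at 7 dpf and 1 fell at 28 dpf, where 5 rose after centring. Of 4 skin and cornea markers 1 fell at 7 dpf, and 1 fell and 1 rose at 28 dpf (1 and 3 after centring). The part of these markers in the differences below was not tested, and in whole eyes fewer cells of a type and less RNA per cell cannot be told apart.

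The mutated gene itself has no value of its own. Its probe set (13093798) also lists hspa8, a constitutive chaperone gene, so the value is a joint one and does not check the genotype labels. It read 7.23, 7.48 and 7.40 in mutant eyes and 7.43, 7.47 and 7.49 in heterozygous eyes at 7 dpf, and 7.57, 7.40 and 7.52 in mutant eyes and 7.35, 7.38 and 7.19 in heterozygous eyes at 28 dpf. The genotypes overlapped at 7 dpf, and at 28 dpf the 3 mutant pools lay above the 3 heterozygous pools. Neither difference passed limma's test over all probe sets, at -0.10 ± 0.08 for 7 dpf (SE, n = 3 against 3, 95% interval -0.28 to 0.08, adjusted p = 0.735) and 0.19 ± 0.08 for 28 dpf (95% interval 0.01 to 0.37, adjusted p = 0.132). After centring each array on the median of its named probe sets, which is described with the scaling below, the 28 dpf difference was 0.39 and passed (adjusted p = 0.00587). The median of all genes tested was then 0.11. As deposited, the 2 probe sets that list hspa8 alone differed by -0.08 (adjusted p = 0.140, gene test) and 0.24 (adjusted p = 0.317, test over all probe sets) at 28 dpf, with opposite signs. Centring moves every 28 dpf difference up by 0.20, more than the size of the negative one. After it both hspa8 differences are therefore positive, as is that of the joint probe set, and their centred p-values are not given here.

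**Figure D1:**
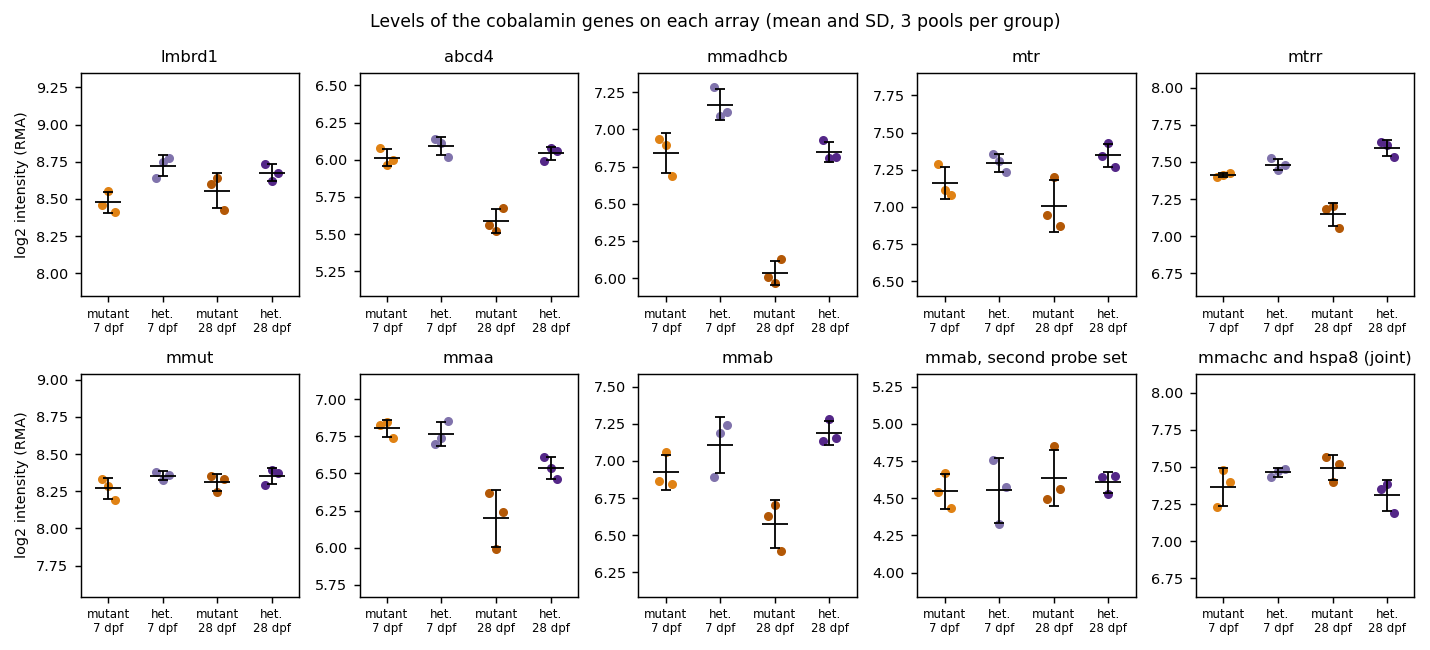
Log2 intensity of the probe sets of the cobalamin genes (y axis, each panel spanning the same range of 1.5 log2 units) in the 4 groups (x axis); points are single arrays, bars the mean and SD of 3 pools. The mutant 28 dpf pools of mmadhcb sit between 5.97 and 6.13, below all 9 other arrays, while mmut lies between 8.19 and 8.39 in every group.

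Of the lysosomal exit genes, lmbrd1 was lower in mutant eyes at 7 dpf and abcd4 at 28 dpf. The lysosomal membrane protein gene lmbrd1 (probe set 13005498) read 8.46, 8.55 and 8.41 in mutant eyes at 7 dpf, against 8.64, 8.75 and 8.78 in heterozygous eyes, with no overlap. It fell by 0.25 ± 0.07 on the log2 scale (adjusted p = 0.0264), to 84.3% of the heterozygous level. That call was lost without heterozygous replicate 2 (adjusted p = 0.0977) or 3 (0.0993) and without mutant replicate 1 (0.0606) or 3 (0.0983). At 28 dpf its mutant pools read 8.60, 8.64 and 8.42 and its heterozygous pools 8.73, 8.62 and 8.68, which overlap, and the difference of -0.12 ± 0.07 (95% interval -0.27 to 0.03) did not pass (adjusted p = 0.145).

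The transporter gene abcd4 (probe set 13147097) was dim. It lay between the 22.6th and 32.0th percentile of the named probe sets on the 12 arrays, below the filter of the gene test (the 33rd percentile on 3 arrays), and was therefore read from the test over all probe sets. Its pools read 5.56, 5.52 and 5.68 in mutant eyes and 5.99, 6.08 and 6.06 in heterozygous eyes at 28 dpf, with no overlap. It fell by 0.46 ± 0.08 (95% interval -0.63 to -0.28, adjusted p = 0.00143), to 72.8% of the heterozygous level. At 7 dpf the pools read 6.08, 5.96 and 6.0 in mutant eyes and 6.14, 6.11 and 6.02 in heterozygous eyes, and the difference was -0.08 ± 0.08 (adjusted p = 0.785).

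The routing gene mmadhcb (probe set 13259801) had the largest difference of the measured cobalamin genes at both ages. It is 1 of 2 zebrafish copies of the gene mutated in human cobalamin D disease. At 28 dpf it read 6.01, 5.97 and 6.13 in mutant eyes and 6.93, 6.81 and 6.81 in heterozygous eyes. The mutant pools stood well below the heterozygous pools, and on each of them mmadhcb lay under the filter of the gene test, the 33rd percentile of named probe sets. It fell by 0.81 ± 0.09 (95% interval -1.01 to -0.62, adjusted p = 1.52e-06), to 56.9% of the heterozygous level. At 7 dpf it read 6.93, 6.90 and 6.69 in mutant eyes and 7.29, 7.09 and 7.12 in heterozygous eyes, again without overlap. That fall was 0.33 ± 0.09 (adjusted p = 0.0246), to 79.8% of the heterozygous level, and it was lost without heterozygous replicate 1 (-0.27, adjusted p = 0.126) or mutant replicate 3 (-0.25, adjusted p = 0.120). The other copy, mmadhca, shares its probe set with cep70, and that joint value differed by -0.20 at 28 dpf (adjusted p = 0.174).

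Both genes of the methionine synthase step fell at 28 dpf, and neither passed at 7 dpf. The reductase gene mtrr (probe set 13149949), whose product restores oxidized methionine synthase, read 7.18, 7.20 and 7.06 in mutant eyes and 7.63, 7.61 and 7.53 in heterozygous eyes at 28 dpf. These pools did not overlap, and mtrr fell by 0.45 ± 0.07 (adjusted p = 3.34e-05), to 73.4% of the heterozygous level. At 7 dpf its mutant pools read 7.40, 7.41 and 7.42, all below the heterozygous 7.52, 7.44 and 7.48, by a difference of -0.07 ± 0.07 that did not pass (95% interval -0.21 to 0.07, adjusted p = 0.564).

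Methionine synthase itself, mtr, is on a probe set (12988112) whose annotation lists the symbol in 2 spellings, so it too was read from the test over all probe sets. It read 6.95, 7.20 and 6.87 in mutant eyes and 7.34, 7.43 and 7.27 in heterozygous eyes at 28 dpf. The pools did not overlap but the nearest, mutant replicate 2 and heterozygous replicate 3, were 7.20 and 7.27. It fell by 0.34 ± 0.09 (95% interval -0.55 to -0.13, adjusted p = 0.0220), to 79.0% of the heterozygous level. The call was lost without heterozygous replicate 1 (adjusted p = 0.0551) or 2 (0.0808), without mutant replicate 1 (0.0714) or 3 (0.0863), and when only the 2 groups compared entered (0.0658). With both spellings taken as 1 symbol in the gene test, an alternative chosen after seeing the data, the adjusted p was 0.00419. At 7 dpf its pools read 7.29, 7.11 and 7.08 in mutant eyes and 7.35, 7.31 and 7.23 in heterozygous eyes, with a difference of -0.14 ± 0.09 (adjusted p = 0.643).

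In the mitochondrial branch the enzyme that uses the cofactor did not pass the test, while the genes that prepare and load the cofactor were lower at 28 dpf. Methylmalonyl-CoA mutase, mmut (probe set 13105716), read 8.36, 8.25 and 8.33 in mutant eyes and 8.29, 8.39 and 8.38 in heterozygous eyes at 28 dpf. It read 8.33, 8.29 and 8.19 in mutant eyes and 8.38, 8.32 and 8.36 in heterozygous eyes at 7 dpf. The genotypes overlapped at both ages. The differences were -0.04 ± 0.06 at 28 dpf (95% interval -0.17 to 0.09, adjusted p = 0.566) and -0.08 ± 0.06 at 7 dpf (95% interval -0.21 to 0.04, adjusted p = 0.431), so these arrays leave room for a fall of up to 0.17 at 28 dpf as scaled by the authors.

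The gene mmab encodes the transferase that makes adenosylcobalamin, the form of the cofactor that the mutase needs. Its brighter probe set (13203019) read 6.63, 6.70 and 6.39 in mutant eyes and 7.13, 7.28 and 7.15 in heterozygous eyes at 28 dpf, with no overlap. It fell by 0.61 ± 0.11 (95% interval -0.84 to -0.39, adjusted p = 0.000112), to 65.3% of the heterozygous level. Its second probe set (13193664) disagreed: it differed by 0.03 at 28 dpf (adjusted p = 0.905 over all probe sets). It lay at the 9.27th to 13.9th percentile of the named probe sets. The mean over both probe sets differed by -0.29 (adjusted p = 0.0221). At 7 dpf the brighter probe set read 6.87, 7.06 and 6.84 in mutant eyes and 6.89, 7.19 and 7.24 in heterozygous eyes, which overlap (-0.18 ± 0.11, adjusted p = 0.298).

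The chaperone gene mmaa (probe set 12948338), whose product loads and protects the mutase, read 6.37, 5.99 and 6.24 in mutant eyes and 6.61, 6.53 and 6.46 in heterozygous eyes at 28 dpf. The pools did not overlap, and mmaa fell by 0.34 ± 0.10 (95% interval -0.54 to -0.13, adjusted p = 0.00699), to 79.2% of the heterozygous level. On mutant replicate 2 it lay under the 33rd percentile of named probe sets. The fall did not pass limma's test after the centring described below (-0.14, adjusted p = 0.231). At 7 dpf the pools read 6.83, 6.85 and 6.74 in mutant eyes and 6.70, 6.74 and 6.85 in heterozygous eyes, with a difference of 0.04 ± 0.10 (adjusted p = 0.842).

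**Figure D2:**
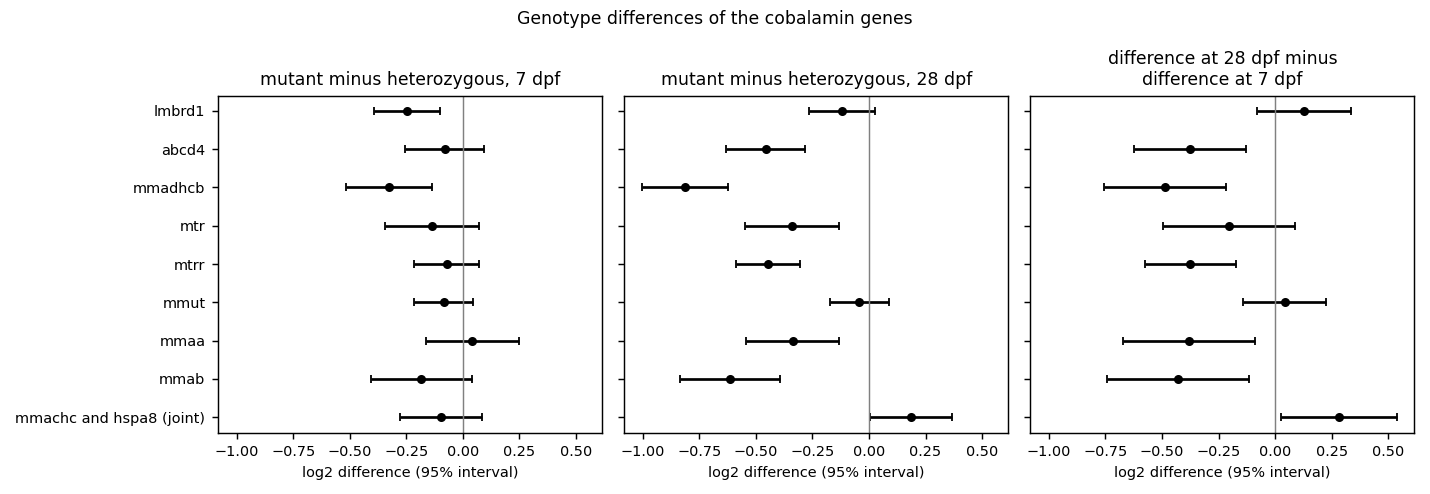
Log2 difference between mutant and heterozygous eyes (x axis) for each cobalamin gene (y axis) at 7 dpf, at 28 dpf, and the 28 dpf difference minus the 7 dpf difference; points are limma estimates from 3 pools per group and bars their 95% intervals. At 28 dpf the estimates run from -0.81 for mmadhcb to 0.19 for the joint probe set of mmachc and hspa8, and 6 of the 9 intervals lie below 0.

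The share of these genes that was called at 28 dpf was near that of all genes. At 7 dpf 2 of the 6 genes in the gene test fell (mmadhcb and lmbrd1) and 0 rose, while limma called 12.4% of the 14002 genes, 4.05% as rises and 8.4% as falls. At 28 dpf 4 of the 6 fell (mmadhcb, mmab, mtrr and mmaa) and 0 rose, while 60.8% of all genes were called, 21.8% as rises and 39% as falls. The median difference of the 6 genes was -0.13 at 7 dpf and -0.39 at 28 dpf, beside -0.03 and -0.09 over all genes. In the test over all probe sets, 0 of the 3 values read there (abcd4, mtr and the joint one) passed at 7 dpf, with 0 at an unadjusted p under 0.05, where 2.45% of all probe sets were called. At 28 dpf 2 of the 3 passed (abcd4 and mtr), where 23% were called. With all probe sets tested separately, mmadhcb and lmbrd1 no longer passed at 7 dpf (adjusted p = 0.0993 and 0.115).

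The scaling of the arrays bears on these directions. Centring each array on the median of its named probe sets moved the median of all genes by 0.20 at 28 dpf. That median was -0.09 as deposited and 0.11 after centring. Centring also turned the balance of the calls, with falls making up 36.0% of them after centring and 64.2% as deposited. After centring, 3 of the 6 cobalamin genes fell at 28 dpf and 1 rose, where 3284 of all 14002 genes fell and 5842 rose. The falls of mmadhcb (-0.62, adjusted p = 1.13e-05), mmab (-0.42, adjusted p = 0.00247) and mtrr (-0.25, adjusted p = 0.00448) passed under both scalings, as did that of abcd4 (-0.26, adjusted p = 0.0244). Those of mmaa (-0.14, adjusted p = 0.231) and mtr (-0.14, adjusted p = 0.206) did not. The sign of mmut turned, to 0.16 (adjusted p = 0.0278), and that of lmbrd1 to 0.08 (adjusted p = 0.332). These values stand beside the centred median of 0.11 over all genes. At 7 dpf centring moved the median of all genes by 0.03, with 57.2% of the centred calls and 67.5% of the deposited ones being falls, and the falls of mmadhcb (-0.30, adjusted p = 0.0284) and lmbrd1 (-0.22, adjusted p = 0.0492) still passed.

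**Figure D3:**
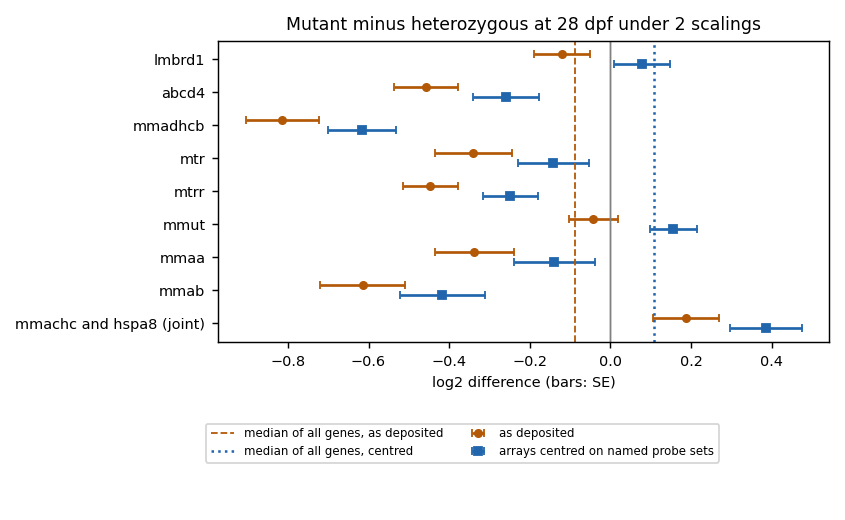
Log2 difference between mutant and heterozygous eyes at 28 dpf (x axis) for each cobalamin gene (y axis) with the values as deposited (circles) and with each array centred on its named probe sets (squares); bars are SE, and vertical lines mark the median of all genes tested under each scaling. Each gene moves by about the shift of that median, 0.20, so that mmut and lmbrd1 lie on opposite sides of 0 under the 2 scalings while mmadhcb, mmab, mtrr and abcd4 stay below 0.

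Whether the genotype difference itself changed between the ages was tested as an interaction, the 28 dpf difference minus the 7 dpf difference. It was negative and passed for 4 of the 6 genes: mmadhcb (-0.49 ± 0.13, adjusted p = 0.00532), mmab (-0.43 ± 0.15, adjusted p = 0.0261), mmaa (-0.38 ± 0.14, adjusted p = 0.0327) and mtrr (-0.37 ± 0.10, adjusted p = 0.00440). Over all genes 47.2% passed, 18.1% with a positive and 29.1% with a negative interaction. Negative ones made up 61.7% of the calls as deposited and 35.3% after centring, which moved the median of all genes by 0.17, to 0.10. Of the 3 values from the test over all probe sets, where 14.3% passed, abcd4 passed (-0.38 ± 0.11, adjusted p = 0.0454). The interactions of mtr (-0.20), lmbrd1 (0.13), mmut (0.04) and the joint probe set (0.28) did not (adjusted p = 0.367, 0.300, 0.710 and 0.139).

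Only the interaction of mmadhcb passed under every alternative run, centring included (-0.32, adjusted p = 0.0364), and that of mtrr was lost only after centring (-0.21, adjusted p = 0.0866). After centring, mmab (-0.26, adjusted p = 0.154), mmaa (-0.21, adjusted p = 0.226) and abcd4 (-0.21, adjusted p = 0.216) no longer passed, while lmbrd1 (0.30, adjusted p = 0.0195), mmut (0.21, adjusted p = 0.0426) and the joint probe set (0.45, adjusted p = 0.0277) did. The mmab call was also lost with the mean over both probe sets (0.281), with all probe sets tested separately (0.0963), and without heterozygous 28 dpf replicate 2 (0.0646), heterozygous 7 dpf replicate 1 (0.0766), mutant 28 dpf replicate 3 (0.0713) or mutant 7 dpf replicate 2 (0.0729). The mmaa call was lost with all probe sets tested separately (0.0951) and without heterozygous 28 dpf replicate 1 (0.0736) or 2 (0.0538), heterozygous 7 dpf replicate 1 (0.0735) or 2 (0.0657), mutant 28 dpf replicate 2 (0.0799), or mutant 7 dpf replicate 1 (0.0599) or 2 (0.0687). That of abcd4 was lost without any single pool other than mutant 28 dpf replicate 3 (adjusted p = 0.0588 to 0.107).

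The same arrays also give the change with age in each genotype. These comparisons share the pools of the genotype comparisons, so they are given side by side and not as further support. As deposited, in mutant eyes 4 of the 6 genes fell between the ages (28 minus 7 dpf) and 0 rose, where 63.9% of all genes were called, 26% as rises and 37.9% as falls. In heterozygous eyes 1 of the 6 fell, where 43% were called, 20.9% as rises and 22.1% as falls. Among all probe sets 25.1% were called in mutant eyes, where abcd4 was the 1 called of 3, and 13.8% in heterozygous eyes, with 0 of the 3 called and 0 at an unadjusted p under 0.05. Centring the arrays moved the median of all genes by 0.13 in mutant eyes, to 0.08, and by -0.03 in heterozygous eyes, to -0.05. In mutant eyes 41.0% of the centred calls and 59.3% of the deposited ones were falls. After centring, 2 of the 6 genes rose with age in mutant eyes, mmut (0.18, adjusted p = 0.0148) and lmbrd1 (0.21, adjusted p = 0.0124), and 2 fell, mmadhcb (-0.67) and mmaa (-0.47). In heterozygous eyes 2 fell after centring, mmadhcb (-0.35) and mmaa (-0.26, adjusted p = 0.0420). Of all 14002 genes, 5499 rose and 3822 fell after centring in mutant eyes, and 2582 rose and 3783 fell in heterozygous eyes. Falls made up 59.4% of the centred calls and 51.4% of the deposited ones in heterozygous eyes.

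Markers of other cell types moved with age too. All 6 skeletal muscle markers rose with age in both genotypes, as deposited and after centring. Over all genes 26% rose and 37.9% fell in mutant eyes as deposited, and 20.9% rose and 22.1% fell in heterozygous eyes. Of 3 blood markers tested, 1 rose and 2 fell with age in mutant eyes, and 1 rose and 1 fell in heterozygous eyes. The summed level of the 4 blood markers on the array was 8.91 to 9.31 at 28 dpf against 10.33 to 10.53 at 7 dpf in mutant eyes, and 8.96 to 9.59 at 28 dpf against 10.36 to 10.75 at 7 dpf in heterozygous eyes. At 7 dpf that sum rests on the embryonic globin gene hbae3, and its fall with age follows that gene. It averaged 7.58 at 28 dpf against 10.03 at 7 dpf in mutant eyes and 6.12 at 28 dpf against 10.04 at 7 dpf in heterozygous eyes. In heterozygous eyes at 28 dpf alas2 (7.99) and slc4a1a (7.80) stood above it. The heme synthesis gene of red cells, alas2, rose with age by 0.59 in mutant eyes and 0.80 in heterozygous eyes (adjusted p = 0.00810 and 0.00168). The third marker tested, slc4a1a, differed by -0.51 in mutant eyes and -0.15 in heterozygous eyes (adjusted p = 0.00458 and 0.421). Their part in the age differences was not tested.

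The gene that fell with age in both genotypes was mmadhcb, by 0.80 ± 0.09 in mutant eyes (adjusted p = 1.32e-06), to 57.3% of the 7 dpf level, and by 0.32 ± 0.09 in heterozygous eyes (adjusted p = 0.00973), to 80.3%. Without heterozygous 7 dpf replicate 1 the second of these did not pass (-0.26, adjusted p = 0.0575). In mutant eyes mmaa fell by 0.61 ± 0.10 (adjusted p = 5.06e-05), to 65.7% of the 7 dpf level, and abcd4 by 0.43 ± 0.08 (adjusted p = 0.00186), to 74.4%. In heterozygous eyes mmaa differed by -0.23 ± 0.10 (adjusted p = 0.0706), although its 3 pools at 28 dpf all lay below those at 7 dpf. For mmab the fall in mutant eyes was 0.35 ± 0.11 (adjusted p = 0.00875; 0.0529 without mutant 28 dpf replicate 3, 0.0844 after centring and 0.284 as the mean over both probe sets). For mtrr it was 0.26 ± 0.07 (adjusted p = 0.00284, and 0.108 after centring), while heterozygous eyes differed by 0.11 ± 0.07 (adjusted p = 0.198). As deposited, mmut differed with age by 0.04 ± 0.06 in mutant eyes and -0.00 ± 0.06 in heterozygous eyes (adjusted p = 0.577 and 0.980), and after centring by 0.18 and -0.04 (adjusted p = 0.0148 and 0.644).

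**Figure D4:**
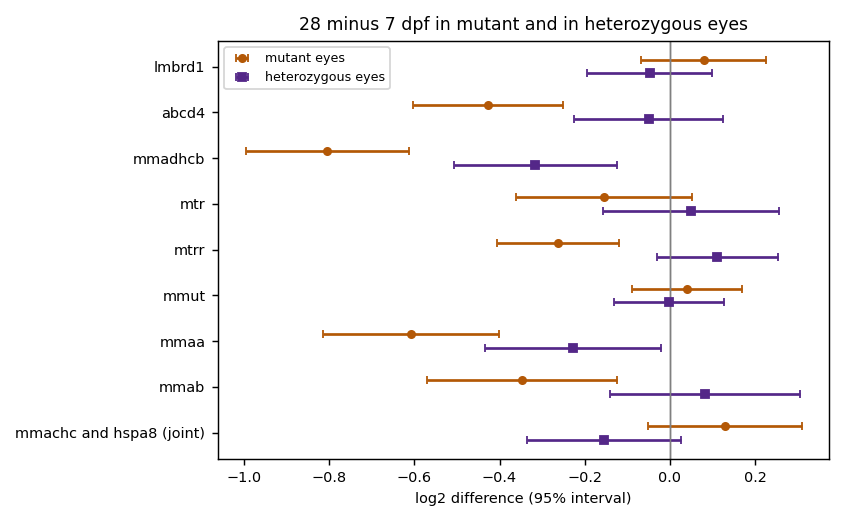
Log2 difference between 28 and 7 dpf (x axis) for each cobalamin gene (y axis) in mutant eyes (circles) and heterozygous eyes (squares); points are limma estimates from 3 pools per group and bars their 95% intervals. In mutant eyes mmadhcb, mmaa, abcd4, mmab and mtrr have intervals below 0; in heterozygous eyes mmadhcb and mmaa do, with adjusted p-values of 0.00973 and 0.0706.

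Ordered by level over the 4 groups, mtrr was the gene whose pools did not overlap between any neighbouring groups. Heterozygous eyes at 28 dpf (7.59) stood above heterozygous eyes at 7 dpf (7.48), mutant eyes at 7 dpf (7.41) and mutant eyes at 28 dpf (7.15). Its differences between the heterozygous ages (0.11, adjusted p = 0.198) and between the genotypes at 7 dpf (-0.07, adjusted p = 0.564) did not pass limma's test. In the latter the nearest pools read 7.42 and 7.44. For mmadhcb, heterozygous eyes at 7 dpf were highest (7.17), mutant eyes at 7 dpf (6.84) and heterozygous eyes at 28 dpf (6.85) overlapped, and mutant eyes at 28 dpf were lowest (6.04). For mmab and abcd4 the other 3 groups overlapped with their neighbours and mutant eyes at 28 dpf (6.57 and 5.59) lay below all of them. For mmaa the 2 groups at 7 dpf overlapped (6.81 in mutant and 6.76 in heterozygous eyes), and mutant eyes at 28 dpf (6.20) lay below heterozygous eyes of that age (6.54). For mtr, mmut, lmbrd1 and the joint probe set every group overlapped with its neighbour in the order.

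Around the 10 genes, 56 other genes of the pathway and its surroundings were listed in 6 groups, and 39 of them were among the genes tested. The counts below stand beside those of all 14002 genes. At 7 dpf limma called 4.05% as rises and 8.4% as falls, and at 28 dpf 21.8% as rises and 39% as falls. After centring 9126 genes were called at 28 dpf, 5842 as rises and 3284 as falls. Whether any list departs from these shares was not tested. Among other carriers and handling genes of cobalamin, 4 of 10 were tested; tcn2, tcnba, cubn and amn, genes of cobalamin carriers and of the gut receptor, were too dim. The exporter gene abcc1, whose product moves cobalamin out of cells in mice, read 8.31, 8.33 and 8.31 in mutant eyes and 9.36, 9.43 and 9.42 in heterozygous eyes at 28 dpf. It fell by 1.08 ± 0.06 (adjusted p = 1.95e-09), and it fell by 0.23 ± 0.06 at 7 dpf (adjusted p = 0.0145), a call lost without heterozygous replicate 3 (0.0774) or mutant replicate 2 (0.0838). The gene clybl, whose product clears citramalyl-CoA and so protects the mitochondrial cofactor in human cells, fell by 0.67 ± 0.13 at 28 dpf (adjusted p = 0.000473). On mutant replicate 2 it lay under the 33rd percentile of named probe sets. The carrier gene tcnbb, of the transcobalamin family, rose by 1.31 ± 0.21 (adjusted p = 6.31e-05), the 1 rise of the 4 as deposited. After centring 2 of the 4 rose, tcnbb and lrp2a (0.19, adjusted p = 0.0165), and 2 fell. As deposited, tcnbb read 6.65, 6.52 and 6.60 in mutant eyes and 5.84, 5.37 and 4.63 in heterozygous eyes at 28 dpf, and the spread lay in the heterozygous pools, all of them below the 33rd percentile of their array. At 7 dpf it read 6.52, 6.86 and 6.55 in mutant eyes and 6.76, 7.12 and 6.71 in heterozygous eyes (-0.22, adjusted p = 0.579).

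The proteins encoded by the hcfc1, znf143 and thap11 genes drive transcription of MMACHC in human cells. None of the 4 such genes tested passed limma's test at 7 dpf (0 at an unadjusted p under 0.05), the brightest being hcfc1b (0.10) and hcfc1a (0.01). At 28 dpf 3 fell and 1 rose, and after centring 2 fell and 1 rose. The co-factor gene hcfc1a read 9.16, 9.15 and 9.08 in mutant eyes and 10.02, 10.09 and 10.10 in heterozygous eyes, and fell by 0.94 ± 0.05 (adjusted p = 2.75e-09). The other copy, hcfc1b, fell by 0.38 ± 0.05 (adjusted p = 1.92e-05) and znf143a by 0.38 ± 0.09 (adjusted p = 0.00200, and 0.0753 after centring). The gene thap11 rose by 0.35 ± 0.08 (adjusted p = 0.00155).

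In the list of the propionate route around the mutase, which takes in the succinyl-CoA synthetase genes and acsf3, 6 of 7 genes fell at 28 dpf and 0 rose as deposited. Their median was -0.44 beside -0.09 over all genes. After centring the 6 falls also passed, and the other gene, aldh6a1, passed as a rise (0.23, adjusted p = 0.00239). The succinyl-CoA synthetase genes fell together: suclg2 by 0.82 ± 0.07 (adjusted p = 1.07e-07), sucla2 by 0.49 ± 0.07 (adjusted p = 1.49e-05) and suclg1 by 0.44 ± 0.06 (adjusted p = 7.05e-06). The malonyl-CoA synthetase gene acsf3, mutated in a human combined malonic and methylmalonic aciduria, fell by 0.68 ± 0.12 (adjusted p = 0.000134). On mutant replicate 1 it lay under the 33rd percentile of named probe sets. At 7 dpf 0 of the 7 passed limma's test, with 2 at an unadjusted p under 0.05, and the brightest were sucla2 (-0.12) and aldh6a1 (-0.18).

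In the methionine cycle around mtr the genes moved in both directions. At 7 dpf 4 of 8 fell and 0 rose, among them the cystathionine synthase gene cbsb (-0.37 ± 0.07, adjusted p = 0.00117). At 28 dpf 2 rose and 3 fell as deposited, and 5 rose and 1 fell after centring, when mat2ab (0.38), mat2aa (0.27) and cbsb (0.22) passed as rises. Betaine-homocysteine methyltransferase, bhmt, remakes methionine without cobalamin. It read 8.81, 8.32 and 8.85 in mutant eyes and 8.19, 8.07 and 7.90 in heterozygous eyes at 28 dpf, with no overlap. It rose by 0.60 ± 0.13 (adjusted p = 0.000714), and its interaction with age was 0.89 ± 0.18 (adjusted p = 0.000846). The methionine adenosyltransferase gene mat1a rose by 0.48 ± 0.09 at 28 dpf (adjusted p = 0.000370) and fell by 0.56 ± 0.09 at 7 dpf (adjusted p = 0.000719), and its paralog mat2ab fell by 1.04 ± 0.10 at 7 dpf (adjusted p = 2.34e-06).

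The glycine N-methyltransferase gene gnmt, whose product uses up S-adenosylmethionine, read 6.0, 6.57 and 6.10 in mutant eyes and 7.88, 7.93 and 8.02 in heterozygous eyes at 28 dpf. It fell by 1.72 ± 0.14 (adjusted p = 7.18e-08) and by 0.64 ± 0.14 at 7 dpf (adjusted p = 0.00598). On mutant replicates 1 and 3 at 28 dpf gnmt lay under the 33rd percentile of named probe sets. Whether so dim a signal limits the size of that fall was not tested. The small fall of ahcyl1 (-0.20, adjusted p = 0.0158) was lost after centring (adjusted p = 0.991) and without mutant replicate 1 (0.0907).

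Of 9 lysosome genes, 2 rose and 2 fell at 28 dpf as deposited, and 5 rose and 0 fell after centring (tfeb by 0.46, lamp1b by 0.43, ctsd by 0.39, lamp2 by 0.27 and mcoln1a by 0.18). As deposited, the rises were tfeb (0.26, adjusted p = 0.0279), a regulator of lysosome genes, and lamp1b (0.23, adjusted p = 0.00945), a membrane protein. The falls were the proton pump gene atp6v1h (-0.19, adjusted p = 0.0103) and the cholesterol transporter gene npc1 (-0.17, adjusted p = 0.0398), and the signs of both turned after centring (0.01 and 0.03). The call of tfeb was lost without heterozygous replicate 1 (0.0656) or 3 (0.0930) or mutant replicate 2 (0.0652) or 3 (0.0579), and that of lamp1b without heterozygous replicate 2 (0.0555). That of npc1 was lost without heterozygous replicate 2 (0.104) or 3 (0.129) or mutant replicate 1 (0.201). At 7 dpf 0 of the 9 passed limma's test, with 2 at an unadjusted p under 0.05, and the brightest, lamp2 and npc1, differed by 0.03 and 0.08.

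Among the paralogs of abcd4 and lmbrd1, of 7 tested 5 fell and 1 rose at 28 dpf, and 2 fell and 1 rose after centring. The peroxisomal transporter genes abcd3b and abcd3a fell by 1.39 ± 0.09 (adjusted p = 5.27e-09) and 0.75 ± 0.11 (adjusted p = 2.18e-05). The first of them read 6.18, 5.96 and 6.27 in mutant eyes and 7.60, 7.51 and 7.48 in heterozygous eyes at 28 dpf. Its mutant pools were dim, and replicate 2 lay under the 33rd percentile of named probe sets. The lipocalin receptor gene lmbr1l, a relative of lmbrd1, rose by 0.43 ± 0.06 (adjusted p = 2.32e-05), while lmbr1 fell by 0.28 ± 0.08 (adjusted p = 0.00653, and 0.350 after centring). At 7 dpf 1 of the 7 fell, abcd2 (-0.21 ± 0.05, adjusted p = 0.00991), a call lost without mutant replicate 2 (0.0576).

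**Figure D5:**
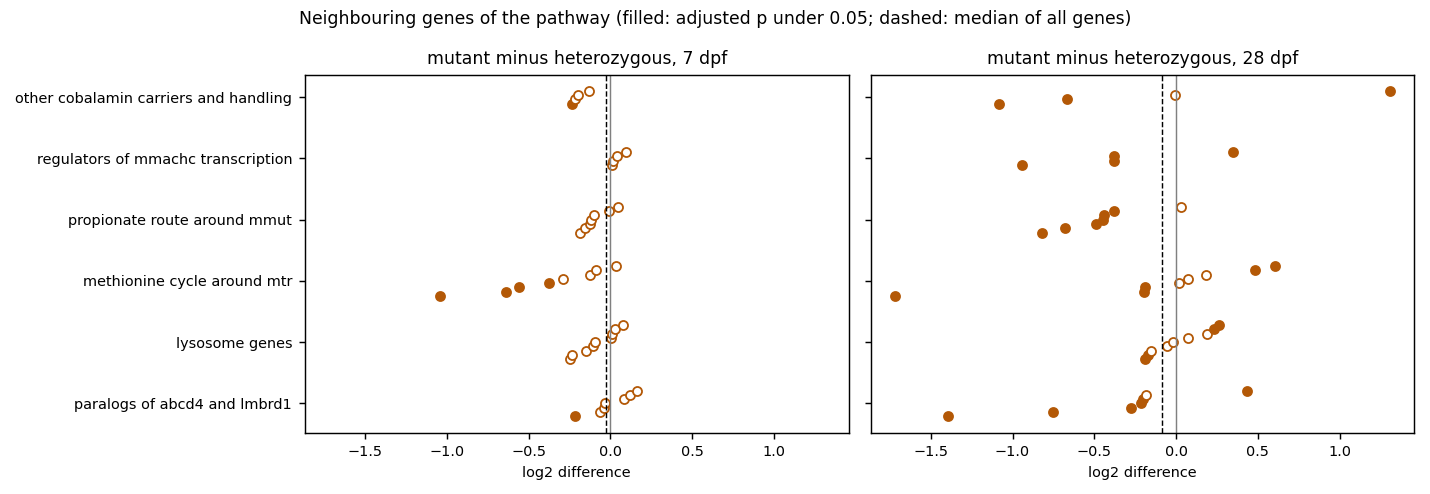
Log2 difference between mutant and heterozygous eyes (x axis) at 7 dpf and at 28 dpf for the tested genes of the 6 groups around the cobalamin route (y axis), as deposited; each point is a gene, filled where limma's adjusted p lay under 0.05, and the dashed line is the median of all genes tested. At 28 dpf the propionate genes lie left of the line except 1, while the methionine cycle genes run from -1.72 for gnmt to 0.60 for bhmt.

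Genes with the pattern most like that of a cobalamin gene were found by the root mean square difference of log2 values over the 12 arrays, each gene centred on its own mean. Nearest to mmadhcb were the splicing factor gene prpf19 (0.08), the granulin gene grnb (0.09) and the cytochrome c heme lyase gene hccsb (0.09), against a median of 0.42 over all genes and a spread of 0.43 of mmadhcb itself. Their 28 dpf differences were -0.89, -0.81 and -0.79. Nearest to mtr were srp14, of the signal recognition particle, cdc26, of the anaphase promoting complex, and rexo4 (0.05, 0.06 and 0.06, against a spread of 0.16 of mtr). Nearest to mmut were the cell adhesion gene ncam1a, the chromatin gene mta1 and the mitochondrial isocitrate dehydrogenase gene idh2, at 0.04, 0.05 and 0.05. The median over all genes was 0.20. The spread of mmut itself was 0.06, so a gene with no change at all would lie at 0.06 too. These distances are descriptions over the same 12 arrays, which share their groups, and carry no test.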

How the data were processed

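Total RNA of whole eyes was measured in 12 pools, 1 Affymetrix array each, and arrays were grouped by their titles. The authors deposited log2 intensities, 1 value per probe set, that came from RMA in Affymetrix Expression Console, per the submitters' processing notes; neither versions nor a genome build are given in the sources used here. RMA corrects background, sets all arrays to 1 distribution and summarises probes. The probe annotation used here is of a zebrafish platform, although the labelling protocol mentions a mouse and human chip. Of 75212 probe sets, 20806 had 1 symbol, 855 several and 53551 none. For 20323 of those with 1 symbol the gene was found in RefSeq's GRCz12tu table, used for names only.

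The brightest probe set stood for a gene, which was tested if above the 33rd percentile of named probe sets on at least 3 of 12 arrays (14002 of 19260 genes). The tests used limma 3.58.1 under R 4.3.3 (1 mean per group, all 12 arrays, variance trend, 8 residual degrees of freedom), with Benjamini-Hochberg adjustment over all genes, or over all probe sets for the joint mmachc and hspa8 value, mtr and abcd4. Calls are adjusted p-values under 0.05. These tests were also run on simulated data, but the settings and error rates of that run are not given here. It therefore says nothing on how the calls depend on the scaling of the arrays or on pools that vary together. The members and lists were chosen with earlier results of these data known. All members are named, and from each other list up to 4 called genes by size of difference, or the 2 brightest where none passed, and the 3 genes nearest in pattern to mmut, mtr and mmadhcb.

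Alternatives were centring, no filter, no variance trend, other probe set rules, a replicate block, only the groups compared, and leaving out each pool. Batches could not be entered, since neither scan dates nor slides are known here.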

Additional observations from a re-analysis of the deposited data

Results flagged for a closer look

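With the values as deposited, 5 of the cobalamin genes passed a limma test of the interaction (28 dpf difference minus 7 dpf difference, n = 3 pools in each of 4 groups), where 47.2% of all genes passed, or 14.3% of all probe sets. It was -0.49 for mmadhcb (adjusted p = 0.00532), whose mutant eyes differed from heterozygous eyes by -0.81 at 28 dpf and -0.33 at 7 dpf. It was -0.43 for mmab (adjusted p = 0.0261), from differences of -0.61 at 28 dpf and -0.18 at 7 dpf. It was -0.38 for mmaa (adjusted p = 0.0327), from -0.34 and 0.04, and -0.37 for mtrr (adjusted p = 0.00440), from -0.45 and -0.07. It was -0.38 for abcd4 (adjusted p = 0.0454, over all probe sets), from -0.46 and -0.08. At each age these values share their pools with the differences they are made of. After centring the arrays, which moved the median interaction of all genes up by 0.17, mmadhcb still passed (-0.32, adjusted p = 0.0364), and mmab, mmaa, mtrr and abcd4 did not (adjusted p = 0.154, 0.226, 0.0866 and 0.216).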

How the results depend on the processing

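Over 940 recomputed values, 858 were labelled the same. For a difference this meant the same direction and side of the threshold, so a difference called in neither run counted as well. Leaving out a pool that a genotype or age comparison does not use cannot change its difference, only its p-value. Part of this agreement was therefore fixed in advance. For a count of calls, the same meant an equal count or one close to it, such as 3 in place of 4, whatever the direction of the calls. So the centred counts were labelled the same at 28 dpf, with 3 falls and 1 rise in place of 4 falls. With age in mutant eyes 2 rises and 2 falls after centring, in place of 4 falls, were labelled the same too. The falls of mmadhcb (-0.86 to -0.62), mmab (-0.68 to -0.29), mtrr (-0.48 to -0.25) and abcd4 (-0.50 to -0.26) at 28 dpf passed under every alternative run. For mmab these runs used its brighter probe set or the mean over both. Its second probe set alone differed by 0.03 at 28 dpf (limma's adjusted p = 0.905 over all probe sets). Centring each array put the median of all genes at 0.11 at 28 dpf and turned the differences of mmut (0.16) and lmbrd1 (0.078) there. It let the joint mmachc and hspa8 value pass at 28 dpf (0.39), for the interaction (0.45) and with age in mutant eyes (0.26). It also gave 2 calls among the 6 genes with age in heterozygous eyes in place of 1, as did the test with no variance trend (2) and the one with only the groups compared (2). All probe sets tested separately gave 0 calls at 7 dpf and 2 for the interaction. Leaving out each pool in turn gave 0 to 2 calls at 7 dpf, 4 at 28 dpf, 2 to 4 for the interaction, 3 to 4 with age in mutant eyes and 0 to 2 in heterozygous eyes. The age differences near 0 in heterozygous eyes changed sign there, with ranges of -0.021 to 0.027 for mmut and -0.024 to 0.15 for mmab. Arrays with the same replicate number deviated together little (correlations over genes of -0.10 to 0.14, above 0.1 in 2 of the 6 pairs of the same age). Yet 8 of 12 arrays correlated best with their own number, out of the 3 arrays of the other genotype at their age. What the numbers stand for is not given, so the main test did not take them to pair the pools, and a block was run as an alternative. A replicate block left 2, 4, 4, 4 and 1 calls among the 6 genes for 7 dpf, 28 dpf, the interaction, mutant age and heterozygous age, and of the calls for the 10 genes only the interaction of abcd4 was lost (adjusted p = 0.0745). The dim signals of abcd4 and the second mmab probe set limit what their changes can show, since signal over background was not measured.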
